A study of Mus musculus with 16 samples.

Results

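The genes described here encode 9 enzymes that lead from acetoacetyl-CoA to lanosterol, the first sterol of cholesterol synthesis. They were listed by name, in the order of the pathway, as Hmgcs1, Mvk, Pmvk, Mvd, Idi1, Fdps, Fdft1, Sqle and Lss. Each symbol was matched to 1 Ensembl identifier of the count table. The table held 53465 genes, of which 18251 passed the filter on low counts, and all 9 enzymes passed it with between 294 and 10382 counts in every library.

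Bulk RNA-seq was done on 16 MC38 tumors, 1 per mouse. MC38 is a mouse colorectal carcinoma line, and its cells had been placed under the skin of the right flank of female C57BL/6 mice 6 to 8 weeks old. Mice whose tumors measured 150 to 250 mm3 on day 16 were assigned at random to control IgG or to an antibody against PD-1 (aPD-1), a checkpoint receptor that restrains T cells. Both antibodies were given at 200 ug on days 16 and 20, and tumors were taken on day 21. The 16 libraries comprised 8 IgG tumors (replicates 1 to 8), 6 aPD-1 non-responders (replicates 9 to 14) and 2 aPD-1 responders (replicates 15 and 16). Response was not assigned at random: the study called the 2 tumors with the most CD8 staining responders after treatment. All 3 groups carry the same cell line and were grown in the same strain.

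The mevalonate pathway builds every sterol and isoprenoid of the cell from acetyl-CoA. HMG-CoA, made by the synthase Hmgcs1, is reduced to mevalonate, which is phosphorylated and decarboxylated to the branched isoprene unit. Units are then joined to farnesyl pyrophosphate, from which squalene, lanosterol and cholesterol are made on one branch, and prenyl groups, dolichol and ubiquinone side chains on others. Transcription of these enzymes is governed by the sterol-regulated factor SREBP-2, whose active part moves to the nucleus when membrane cholesterol is low. Promoters that it activates often carry a sterol regulatory element beside CCAAT boxes bound by NF-Y.

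The 250 bases before the annotated start site were read from RefSeq (GRCm38.p6) to show what the promoters share. Entries were matched for 6 of the 9 enzymes, Hmgcs1, Mvk, Pmvk (2 start sites), Mvd, Idi1 and Lss. Fdps, Fdft1 and Sqle had none. The stretches of 4 are printed: Hmgcs1, which held the sterol regulatory element core, Mvk, which held the most CCAAT boxes, Idi1, the member that varied most, and Lss, a called member. They lie at chr13:119690101-119690350 for Hmgcs1, chr5:114444019-114444268 for Mvk, chr13:8885356-8885605 for Idi1 and chr10:76531355-76531604 for Lss, all on the plus strand. They are written 5′ to 3′ with capitals marking matches to the sterol regulatory element core TCACNCCAC or to CCAAT and its complement ATTGG. The RefSeq start sites of Idi1 and Lss differ from the gene starts given below, 8885501 and 76531588, and both windows run past these. Both marked matches of Idi1 lie past 8885501, inside that gene model.
Hmgcs1: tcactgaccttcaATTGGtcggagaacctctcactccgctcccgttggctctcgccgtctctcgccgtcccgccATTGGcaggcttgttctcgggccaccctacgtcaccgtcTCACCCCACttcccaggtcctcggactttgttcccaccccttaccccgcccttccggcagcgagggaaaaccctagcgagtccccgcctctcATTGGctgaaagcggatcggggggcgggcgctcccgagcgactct
Mvk: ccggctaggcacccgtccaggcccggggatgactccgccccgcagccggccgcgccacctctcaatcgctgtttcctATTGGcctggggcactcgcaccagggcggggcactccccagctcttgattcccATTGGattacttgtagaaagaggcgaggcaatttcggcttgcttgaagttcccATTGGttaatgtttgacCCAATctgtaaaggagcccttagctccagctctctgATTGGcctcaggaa
Idi1: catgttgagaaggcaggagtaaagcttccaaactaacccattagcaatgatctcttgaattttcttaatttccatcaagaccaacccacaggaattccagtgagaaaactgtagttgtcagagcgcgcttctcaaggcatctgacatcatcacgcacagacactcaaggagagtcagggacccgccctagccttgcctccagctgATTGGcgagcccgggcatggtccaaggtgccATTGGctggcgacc
Lss: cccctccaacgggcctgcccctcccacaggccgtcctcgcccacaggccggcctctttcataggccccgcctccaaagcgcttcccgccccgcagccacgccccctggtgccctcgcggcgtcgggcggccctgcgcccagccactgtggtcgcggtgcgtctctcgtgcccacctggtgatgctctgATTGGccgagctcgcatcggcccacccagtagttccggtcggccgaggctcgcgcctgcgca

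Each of the 6 enzymes with a promoter entry held CCAAT on one strand or the other (6 of 7 start sites), against 33.8% of the 32851 promoters in the RefSeq table. Mvk held 5 copies, Hmgcs1 3, Mvd and Idi1 2 each, and Lss and Pmvk 1 each. The core TCACNCCAC was matched in 1 of the 6, at 137 bases before the start of Hmgcs1, and in 1.05% of all promoters. The GC box GGGCGG was found in 5 of the 6 against 32.7% of all promoters, and the E-box CACGTG in 0 of the 6 against 6.02%. Both strands were searched, and matches of the different motifs were counted independently of one another. A match describes letters in this window and is not evidence that a factor binds there.

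Library size ranged from 26603477 to 39948874 counts. IgG replicate 1 had the smallest library and the highest share of mitochondrially encoded counts, 7.60%, against 2.52% to 3.21% in the other IgG tumors. Non-responders 9 and 14 were also high, at 6.00% and 5.74%. In IgG replicate 3 a single gene, CT010467.1, took 20.4% of all counts. The responders differed in cell content: the summed level of 8 T cell markers was 261 and 278 CPM (counts scaled to library size) in responders against 9.41 to 39.2 in the other 14 tumors, that of 5 B cell markers 276 and 994 against 1.52 to 6.50, and that of 5 adipocyte markers 379 and 2163 against 16.8 to 137. The epithelial markers did not mark these tumors strongly: the summed level of 8 of them was 4.67 to 12.4 CPM in the 14 tumors, with Cdx2 at 0 in 15 of 16 libraries, and was 50.7 and 117 in responders. Proliferation markers summed to 1288 and 1712 CPM in responders and to 1293 CPM in IgG replicate 1, against 1385 to 2335 in the other 13 tumors. In bulk tissue, fewer cells that express a gene and less RNA per cell cannot be told apart, and the part of cell content or mitochondrial share in the results below was not tested.

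Expression of the enzymes followed one order of groups in broad terms. Values are CPM on library sizes scaled by the TMM method, and fold changes are on the log2 scale. All 8 aPD-1 tumors lay below the IgG median for 9 of 9 enzymes, an arrangement found in 3.78% of all 18251 genes. The 6 non-responders alone did so for 9 of 9, against 5.92% of genes. Both responders lay below all 6 non-responders for 6 of 9 (13.2% of genes): Mvk, Pmvk, Fdps, Fdft1, Sqle and Lss. Within IgG, replicate 1 was the lowest tumor for 9 of 9 enzymes and replicate 8 the next lowest for 9 of 9, while the highest of the 16 tumors was always an IgG tumor, replicate 4 for 6 enzymes. For 8 of the 9 enzymes 6 IgG tumors lay above every aPD-1 tumor, and for Fdft1 5 did. The share of all genes with this arrangement was not counted, and it partly restates the count below the IgG median. The 9 enzymes varied together (median Pearson r of pairs 0.898 in the 14 tumors other than the responders). Counts of enzymes, here and below, are therefore not counts of independent observations.

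**Figure D1:**
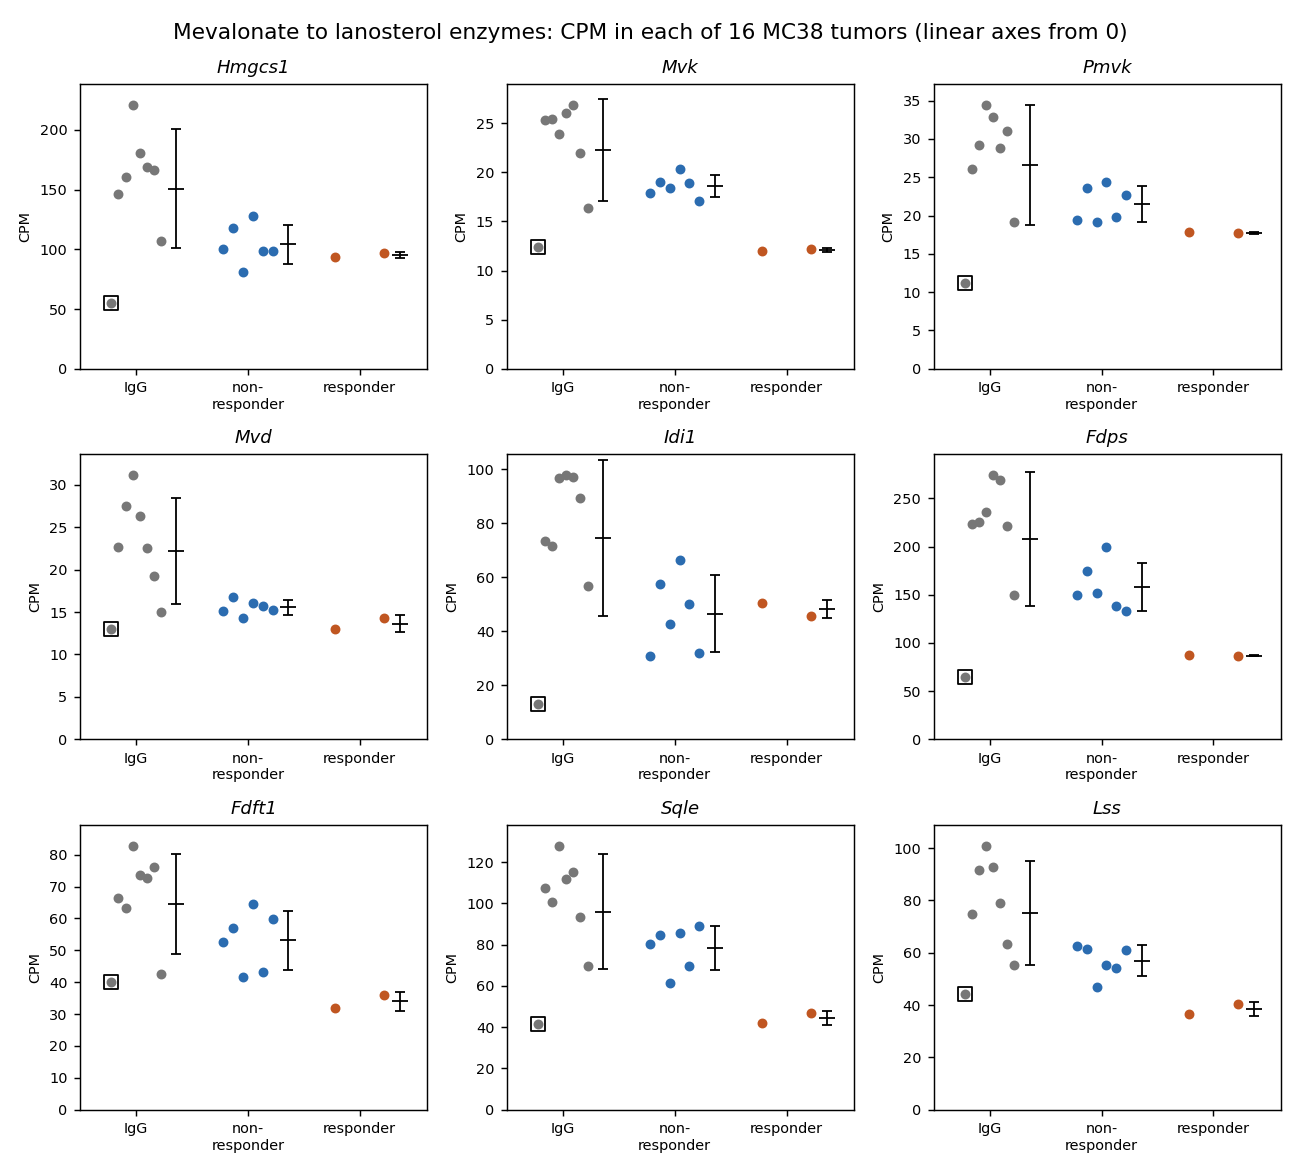
Each panel plots 1 enzyme as CPM (linear axis from 0) in 8 IgG, 6 non-responder and 2 responder tumors. Points are tumors, the bar beside each group is the mean ± SD, and the open square marks IgG replicate 1, which was the lowest IgG tumor in 9 of 9 panels. Responders lie below every non-responder in 6 panels.

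Hmgcs1 (ENSMUSG00000093930, chr13:119690379-119708260 of GRCm38, plus strand) encodes the cytosolic HMG-CoA synthase, which condenses acetoacetyl-CoA with acetyl-CoA. Its level in IgG tumors ran from 55.4 to 221 CPM with a median of 163. In non-responders it ran from 80.7 to 128 with a median of 99.6, and the responders had 93.8 and 96.8 CPM. The responders thus lay inside the non-responder range, and the log2 fold change between them was -0.13 (SE 0.33, adjusted p = 0.849). Against IgG, the log2 fold change was -0.66 in responders (SE 0.33, adjusted p = 0.178) and -0.54 in non-responders (SE 0.22, unadjusted p = 0.0261, adjusted p = 0.987). The gene shares 160 bases at 95% identity with Chordc1, so a small part of its reads may be ambiguous.

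Mvk (ENSMUSG00000041939, chr5:114444269-114460591, plus strand) encodes mevalonate kinase, which adds the first phosphate to mevalonate. IgG tumors had 12.4 to 26.9 CPM (median 24.6) and non-responders 17.1 to 20.3 (median 18.6). The responders had 11.97 and 12.21 CPM, below all 14 other tumors. Mvk was the member with the narrowest spread relative to its level among non-responders apart from Mvd, with a mean of 18.6 ± 1.10 CPM (SD, n = 6). It was lower in responders than in IgG tumors (log2 fold change -0.88, SE 0.23, adjusted p = 0.00855), at 54.3% of the IgG mean. Against non-responders the log2 fold change was -0.62 (SE 0.23), at 65.0% of their mean, with an adjusted p of 0.0674.

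Pmvk (ENSMUSG00000027952, chr3:89454541-89469013, plus strand) encodes phosphomevalonate kinase, which adds the next phosphate. Its level was 11.2 to 34.5 CPM in IgG tumors (median 29.1), 19.1 to 24.4 in non-responders (median 21.2), and 17.7 and 17.9 in responders. Both responders lay below the non-responders, but above IgG replicate 1. The log2 fold change of responders was -0.28 against non-responders (SE 0.29, adjusted p = 0.582) and -0.58 against IgG (SE 0.29, adjusted p = 0.169).

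Mvd (ENSMUSG00000006517, chr8:122433601-122443422, minus strand) encodes the decarboxylase that turns diphosphomevalonate into isopentenyl pyrophosphate, the isoprene unit. IgG tumors had 13.04 to 31.1 CPM (median 22.6), and the aPD-1 tumors sat in a narrow band: 14.3 to 16.8 in non-responders (median 15.5) and 12.95 and 14.3 in responders. Of the 9 enzymes Mvd had the smallest unadjusted p both for non-responders against IgG (log2 fold change -0.51, SE 0.16, unadjusted p = 0.00591, adjusted p = 0.987) and for all aPD-1 tumors against IgG (log2 fold change -0.56, SE 0.15, unadjusted p = 0.00172, adjusted p = 0.152). Responders against IgG gave -0.70 (SE 0.25, adjusted p = 0.0514), and responders against non-responders -0.19 (SE 0.25, adjusted p = 0.675). Mvd was called in responders against IgG when IgG replicate 1 (adjusted p = 0.00447), IgG replicate 8 (adjusted p = 0.0258) or non-responder 10 (adjusted p = 0.0395) was left out. It was also called by DESeq2 (adjusted p = 0.0236), with median-of-ratios scaling (adjusted p = 0.0455), with no filter on low counts (adjusted p = 0.0379) and with 3 libraries left out together (adjusted p = 0.00528).

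Idi1 (ENSMUSG00000058258, chr13:8885501-8892451, plus strand) encodes the isomerase that turns isopentenyl into dimethylallyl pyrophosphate, the primer for chain growth. It was the most variable member: IgG tumors ran from 13.2 to 97.7 CPM (median 81.4), a 7.41-fold range that was 1.73-fold without replicate 1. Non-responders ran from 30.8 to 66.3 CPM (median 46.4), with the lowest values in replicates 9 and 14, and responders had 50.5 and 45.7. The 3 tumors with the lowest Idi1 were thus the 3 with the highest mitochondrial share, a relation that was not tested. Responders against non-responders gave a log2 fold change of 0.05 (SE 0.47, adjusted p = 0.965), the only positive value of the 9 enzymes in 4 comparisons, and its sign turned without IgG replicate 1 (-0.016), non-responder 9 (-0.048), non-responder 14 (-0.040) or responder 15 (-0.097). Against IgG the log2 fold change was -0.68 in non-responders (SE 0.32, unadjusted p = 0.0487, adjusted p = 0.987) and -0.63 in responders (SE 0.48, adjusted p = 0.397). A processed pseudogene identical to Idi1 over 684 bases, Gm13502, held 0.243% as many counts.

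Fdps (ENSMUSG00000059743, chr3:89093588-89101959, minus strand) encodes farnesyl pyrophosphate synthase, the enzyme that nitrogen-containing bisphosphonates inhibit. It was the most abundant member in IgG tumors, at 64.6 to 274 CPM (median 224). Non-responders had 133 to 200 CPM (median 151) and responders 87.1 and 86.7. The responders therefore lay below every non-responder and every IgG tumor other than replicate 1. Fdps had the largest fold change of the 9 enzymes in both responder comparisons: -1.26 against IgG (SE 0.37, adjusted p = 0.0197), at 41.8% of the IgG mean, and -0.86 against non-responders (SE 0.37, unadjusted p = 0.0316, adjusted p = 0.117), at 55.0% of their mean. Processed pseudogenes of Fdps and an overlapping gene model held at most 0.168% of its counts each. The call against IgG was lost in a fit of only the 2 groups (adjusted p = 0.063).

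Fdft1 (ENSMUSG00000021273, chr14:63145150-63179578, minus strand) encodes squalene synthase, which joins 2 farnesyl pyrophosphates and commits them to sterols. Its level was 39.9 to 82.8 CPM in IgG tumors (median 69.5), 41.6 to 64.6 in non-responders (median 54.8), and 31.95 and 36 in responders, below all 14 other tumors. It was lower in responders than in IgG tumors (log2 fold change -0.93, SE 0.25, adjusted p = 0.0127), at 52.6% of the IgG mean. Against non-responders the log2 fold change was -0.65 (SE 0.25, unadjusted p = 0.0216, adjusted p = 0.0892). The gene model overlaps Ctsb on the opposite strand. The libraries kept strand, but whether strand was used in counting is not given in the sources used here.

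Sqle (ENSMUSG00000022351, chr15:59315077-59331192, plus strand) encodes squalene epoxidase, an oxygen-dependent and rate-limiting step of the sterol branch. IgG tumors had 41.7 to 128 CPM (median 104), non-responders 61.3 to 89.1 (median 82.5), and responders 41.9 and 46.8. The responders lay below every non-responder, and only IgG replicate 1 was lower. Sqle was lower in responders than in IgG tumors (log2 fold change -1.11, SE 0.30, adjusted p = 0.0119), at 46.2% of the IgG mean. Its fold change against non-responders was -0.82 (SE 0.30, unadjusted p = 0.0144, adjusted p = 0.0665), at 56.5% of their mean.

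Lss (ENSMUSG00000033105, chr10:76531588-76557138, plus strand) encodes lanosterol synthase, which folds oxidosqualene into the sterol ring system. Levels were 44.3 to 101 CPM in IgG tumors (median 77.0), 47.1 to 62.6 in non-responders (median 58.1), and 36.6 and 40.4 in responders, below all 14 other tumors. Lss was lower in responders than in IgG tumors (log2 fold change -0.97, SE 0.25, adjusted p = 0.00804), at 51.1% of the IgG mean and with the smallest adjusted p of the members. Against non-responders the log2 fold change was -0.56 (SE 0.24, unadjusted p = 0.0351, adjusted p = 0.126), and non-responders against IgG gave -0.41 (SE 0.16, unadjusted p = 0.0202, adjusted p = 0.987).

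The first comparison asked whether the enzymes differed between responding and resisting tumors. With the quasi-likelihood test of edgeR, adjusted over all genes by the Benjamini-Hochberg method, 0 of 9 enzymes passed at an adjusted p below 0.05 in responders against non-responders, where 4.34% of all genes were called lower. At an unadjusted p below 0.05, 5 of 9 were lower (Mvk, Fdps, Fdft1, Sqle and Lss), against 10.4% of genes. The median log2 fold change of the 9 was -0.56, beside 0.02 over all genes tested. These calls depended on what shared the fit. The same 5 passed the adjusted threshold when IgG replicate 1 was left out (adjusted p between 0.0023 and 0.0225). They also passed when the fit held only the 2 groups compared, which called 3383 of 17651 genes in either direction. Without IgG replicate 1, 5046 of 18104 genes were called in either direction, against 3599 of 18251 with all tumors. DESeq2 called 2, Mvk (adjusted p = 0.0376) and Sqle (adjusted p = 0.0318), with 4045 of 21553 genes called in either direction. With IgG replicate 1 and non-responders 9 and 14 left out together, 4 were called, where 5802 of 17822 genes were. With responder 15 left out, the median log2 fold change of the 9 was -0.565, with no spread among responders to judge it by. Hmgcs1, Fdps, Fdft1 and Sqle are among the genes that the study had picked from spatial data of the same tumors, so their direction in this comparison is not independent evidence. The same holds for Cyp51, Insig1 and Nsdhl below, and for responders against IgG, which uses the same responders. In these bulk data the study, using DESeq2, reported Sqle and Cyp51 as passing an adjusted p threshold in this comparison, with minor changes in expression.

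The second comparison set non-responders against IgG tumors. All 9 log2 fold changes were negative, from -0.68 (Idi1) to -0.26 (Mvk), with a median of -0.40 beside -0.01 over all genes. At the adjusted threshold 0 of 9 enzymes passed, and 0.0% of all genes were called lower. At an unadjusted p below 0.05, 4 of 9 were lower (Hmgcs1, Mvd, Idi1 and Lss), against 1.24% of genes. DESeq2 gave 4 as well, with 0 at the adjusted threshold. By DESeq2, 880 of 30752 genes had an unadjusted p below 0.05 in either direction. Without IgG replicate 1, 9 of 9 had an unadjusted p below 0.05, with adjusted p between 0.101 and 0.245. In that fit 3219 of 18104 genes had such a p in either direction, against 694 of 18251 with all tumors. Without IgG replicate 4 or non-responder 11, 2 of 9 did, where 629 of 18225 and 530 of 18229 genes did in either direction.

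The third comparison, responders against IgG tumors, shares its tumors with the other 2. Here 5 of 9 enzymes fell at an adjusted p below 0.05 (Mvk, Fdps, Fdft1, Sqle and Lss), against 5.17% of all genes, and 6 of 9 at an unadjusted p below 0.05, against 11.2%. Fdps and Sqle also had a log2 fold change below -1, which 0.641% of genes reached together with the adjusted threshold. The median log2 fold change of the members was -0.88 beside -0.02 over all genes. Both responders lay below all 8 IgG tumors for 3 of 9 enzymes, against 9.67% of genes. They lay below the 7 IgG tumors other than replicate 1 for 9 of 9, against 17.6%. Replicate 1 was the lowest IgG tumor for 9 of 9 enzymes. Leaving it out therefore favors the enzymes over genes at large, and the count of 9 is no support beyond the first. Without IgG replicate 1 all 9 were called (adjusted p between 4.48e-05 and 0.0241), in a fit that called 5682 of 18104 genes in either direction, against 4175 of 18251 with all tumors. Without responder 15, 0 were called, with 1398 of 19162 genes called, and without responder 16, 3 were (Mvk, Fdft1 and Lss), with 3845 of 19434.

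The comparison that follows the random assignment set all 8 aPD-1 tumors against the 8 IgG tumors. Log2 fold changes ran from -0.67 (Idi1) to -0.37 (Pmvk), with a median of -0.53 beside 0.00 over all genes. At the adjusted threshold 0 of 9 enzymes passed, the smallest adjusted p being 0.152, and 0.0% of genes were called lower. At an unadjusted p below 0.05, 8 of 9 were lower, all but Pmvk, against 2.24% of genes. That count was 4 without IgG replicate 4 or 6, and 5 without IgG replicate 5 or 7, non-responder 11 or either responder. Genes with such a p in either direction numbered 2463 of 18251 with all tumors. They were 2085 of 18225 without IgG replicate 4 and 2068 of 18204 without IgG replicate 6. In the other fits named they ran from 1492 of 19162 (without responder 15) to 2439 of 18229 (without non-responder 11). DESeq2 called Mvd alone of the 9 (adjusted p = 0.0459), with 134 of 18763 genes called in either direction.

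**Figure D2:**
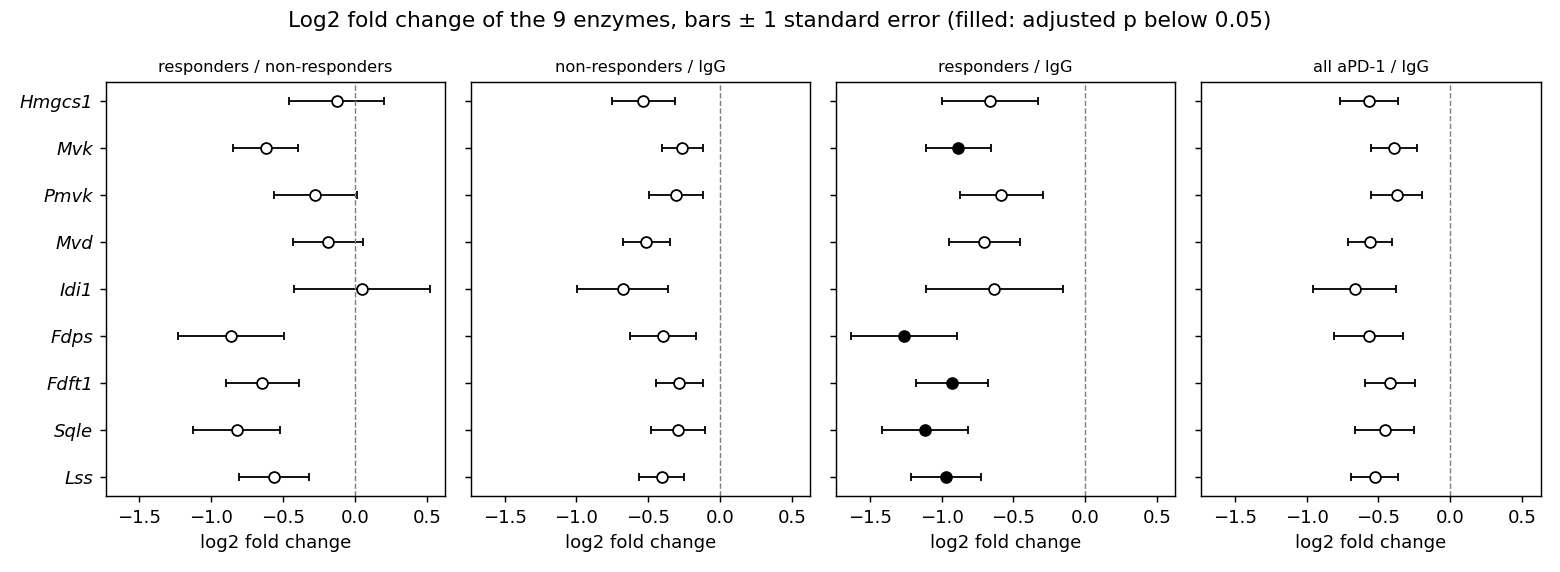
Log2 fold change (horizontal axis) of each enzyme in 4 comparisons, with bars of ± 1 SE derived from the F statistic of edgeR, and filled points for adjusted p below 0.05. Filled points occur only in responders against IgG, at Mvk, Fdps, Fdft1, Sqle and Lss. Of the 36 points, only Idi1 in responders against non-responders lies above 0.

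Fold changes in responders were unequal along the pathway, though the difference between steps was not tested. Among the 5 enzymes up to Idi1, Mvk alone was called against IgG, whereas all 4 from Fdps onward were. The log2 fold changes of responders against non-responders were -0.13, -0.62, -0.28, -0.19 and 0.05 for Hmgcs1 to Idi1 and -0.86, -0.65, -0.82 and -0.56 for Fdps to Lss. Taking the ratio of each enzyme to Hmgcs1 within a tumor removes the scaling of the library, a step chosen after these values had been seen and therefore given with no test. The ratio for Fdps was 0.929 and 0.895 in responders, against 1.07 to 1.59 in IgG tumors and 1.35 to 1.88 in non-responders. For Sqle it was 0.446 and 0.483 against 0.563 to 0.753 and 0.669 to 0.906, and for Fdft1 0.341 and 0.372 against 0.375 to 0.721 and 0.439 to 0.609. In these 3 of 8 ratios both responders lay below all 14 other tumors, and in 5 of 8, with Mvk and Lss, below all non-responders. How many of all genes have such a ratio was not counted. The 8 ratios share Hmgcs1 as denominator, so these counts largely repeat the separation of the enzymes given above. The Idi1 ratio was 0.238 in IgG replicate 1 and 0.306 and 0.326 in non-responders 9 and 14, against 0.437 to 0.575 in the other 13 tumors.

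**Figure D3:**
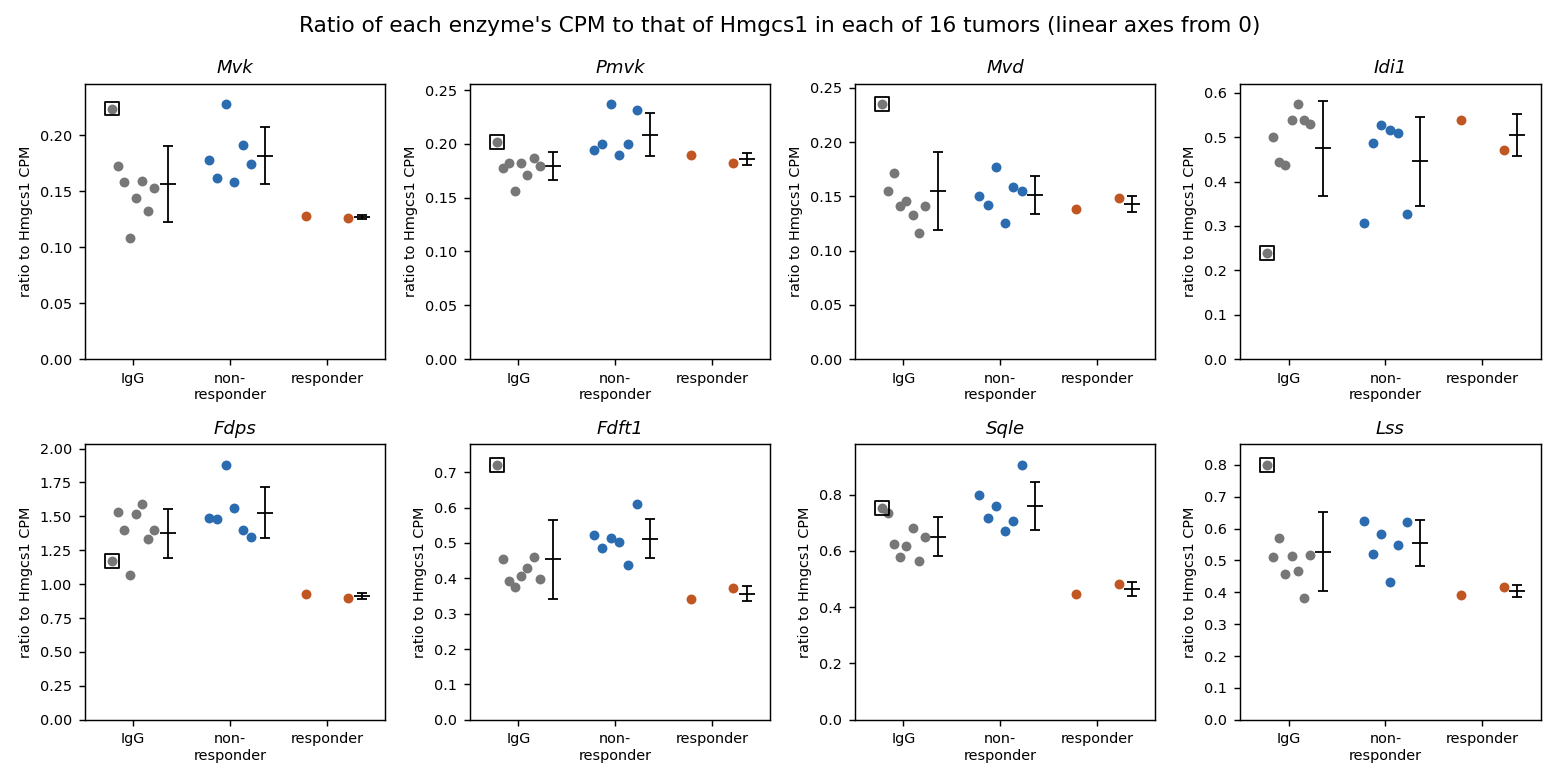
Each panel plots the CPM of 1 enzyme divided by that of Hmgcs1 (linear axis from 0) in 16 tumors by group, with the mean ± SD and an open square at IgG replicate 1. Fdps, Fdft1 and Sqle ratios are lower in both responders than in any other tumor, and the Idi1 ratio is lowest in IgG replicate 1 (0.238).

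Compared per kilobase of exon, Fdps stood highest in IgG tumors at 49.4 ± 16.4 CPM per kilobase (SD, n = 8), followed by Hmgcs1 at 32.8 ± 10.9 and Idi1 at 21.3 ± 8.26. Sqle (17.3 ± 5.03), Pmvk (15.5 ± 4.55) and Fdft1 (15.3 ± 3.70) followed within each other's spread. Mvd (11.9 ± 3.34), Mvk (8.33 ± 1.94) and Lss (6.98 ± 1.84) were lowest, and here too neighbors overlapped. The length used was the union of annotated exons, 10787 bases for Lss and 1713 to 5546 for the other members. The order therefore depends on the annotation, and the lengths of the expressed transcripts were not determined. In non-responders Fdps remained ahead of Hmgcs1, at 37.5 ± 5.94 against 22.6 ± 3.63 (SD, n = 6). In the 2 responders the order at the top was no longer separated, with Hmgcs1 at 20.8 ± 0.475 and Fdps at 20.6 ± 0.0792 CPM per kilobase.

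The 9 enzymes varied together from tumor to tumor. Over the 14 tumors other than the responders, the 36 pairs had a median Pearson r of 0.898 for log2 CPM, from 0.722 (Idi1 with Lss, Spearman rho 0.798) to 0.968 (Hmgcs1 with Pmvk, rho 0.943). Leaving out the 2 tumors farthest from the median of the first gene gave 0.714 and 0.947 for these pairs. The median r of the members with the other 18242 genes tested was -0.02. Tumors enter each pair with a shared library, depth scaling and tissue make-up, so these values are a description. The median r was 0.912 in the 8 IgG tumors, 0.855 in the 7 without replicate 1, and 0.866 in the 13 tumors without replicate 1. Among the 6 non-responders alone it was 0.606, from -0.28 (Idi1 with Lss) to 0.945, with 26 of 36 pairs above 0.5. Mvd and Lss were close to each other (r = 0.965), as were Idi1 and Fdps (r = 0.958).

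**Figure D4:**
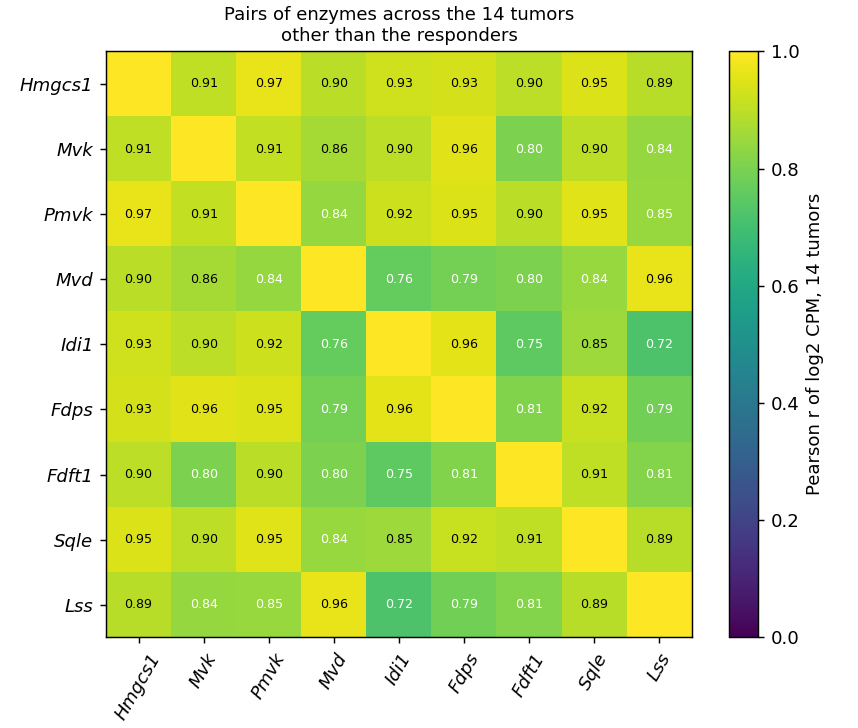
Pearson r of log2 CPM for the 36 pairs of enzymes over the 14 IgG and non-responder tumors, with color and printed number giving r. Values run from 0.722 (Idi1 with Lss) to 0.968 (Hmgcs1 with Pmvk).

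**Figure D5:**
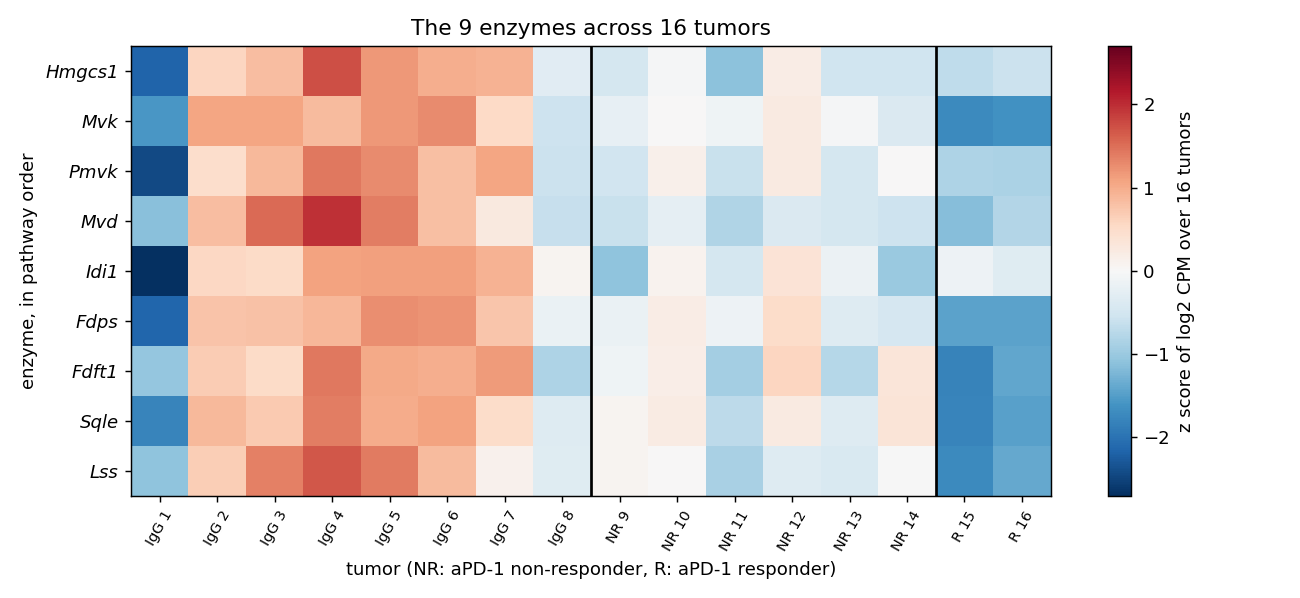
Each cell is the z score of log2 CPM of 1 enzyme (rows, in pathway order) in 1 tumor (columns), taken over the 16 tumors, with vertical lines between IgG, non-responder and responder tumors. Columns tend to have 1 color from top to bottom. Scaled instead on the 14 tumors other than the responders, the mean z score over the 9 enzymes was -2.10 in IgG replicate 1 and 1.31 in IgG replicate 4. On that scale it was -1.61 and -1.44 in the responders.

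Genes that moved most like the members over these 14 tumors included other enzymes of sterol synthesis. Of the 8 tested genes with the highest r to the mean z score of the members, those named here are Acat2 (r = 0.980), Sc5d (0.978), Nsdhl (0.974), Elovl6 (0.963), Cyp51 (0.950) and Msmo1 (0.946). Acat2 is the cytosolic acetoacetyl-CoA thiolase that feeds Hmgcs1, and Elovl6 elongates fatty acids. Cyp51, Msmo1, Nsdhl and Sc5d carry lanosterol on to cholesterol. Without IgG replicate 1, Nsdhl (0.977), Acat2 (0.966) and Sc5d (0.963) were again the 3 highest. Cyp51 (0.916) and Msmo1 (0.907) then fell to ranks 10 and 11. Plpbp (0.950), Acsl3 (0.936) and Acss2 (0.933) came among the first 8, so the list depended on that tumor.

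Other genes of the pathway were counted in 4 lists, and every gene of each list was tested. Upstream of the members, 5 genes of acetyl-CoA supply all had negative log2 fold changes in non-responders against IgG (median -0.43), with 2 of 5 at an unadjusted p below 0.05. Acss2, the cytosolic acetyl-CoA synthetase, went the other way from the members in responders: it had 17.4 and 20.6 CPM there, against 10.3 to 11.8 in non-responders and 7.87 to 18.6 in IgG tumors. It rose against non-responders (log2 fold change 0.80, SE 0.23, adjusted p = 0.0231), the only one of the 5 that passed in any comparison, and the call was lost without non-responder 10 or either responder, and with no filter on low counts. Adipocyte markers were also higher in the responders (379 and 2163 CPM), and their part was not tested.

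Downstream, 10 genes carry lanosterol to cholesterol. In responders against IgG 1 of 10 fell at the adjusted threshold, Cyp51, the lanosterol demethylase that acts directly after Lss. Its level was 75.4 and 76.5 CPM in responders, 106 to 170 in non-responders and 76.1 to 228 in IgG tumors, where 76.1 was replicate 1. The log2 fold change was -1.22 against IgG (SE 0.31, adjusted p = 0.00871) and -0.83 against non-responders (SE 0.31, adjusted p = 0.0737). In responders against non-responders 0 of the 10 genes were called in the reported fit. There 1 of 10 was called by DESeq2, in a fit of only the 2 groups, with 3 libraries left out and without IgG replicate 1. The numbers of all genes called in these fits are given above. The median log2 fold change of the 10 genes was -0.51 in responders against IgG and -0.13 in responders against non-responders, beside -0.88 and -0.56 for the 9 members. In non-responders against IgG 9 of 10 values were negative, with 2 at an unadjusted p below 0.05 and 0 at the adjusted threshold. Without IgG replicate 1, 7 of 10 were called in responders against IgG, where 5682 of 18104 genes were. The count was 0 without responder 15, where 1398 of 19162 genes were called, and 0 without responder 16, where 3845 of 19434 were.

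The branches that leave the pathway at farnesyl pyrophosphate were followed through 10 genes. Of these genes for prenyl transfer, dolichol and ubiquinone, 1 fell in responders, Pdss1, which makes the ubiquinone side chain (11.2 and 17.2 CPM against 18.3 to 23.6 in non-responders; log2 fold change -0.54, SE 0.17, adjusted p = 0.0397; against IgG -0.58, adjusted p = 0.0201). The call against non-responders was lost when IgG replicate 2 or 8, non-responder 12 or 14, or responder 15 was left out, in a fit of only the 2 groups, and with a filter of 10 counts in 8 tumors. The call against IgG was lost without responder 15 and in a fit of only the 2 groups. The median log2 fold change of the list was -0.02 in responders against non-responders and -0.08 in both comparisons with IgG.

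Among 7 genes of sterol sensing, Insig1, which retains the SREBP complex in the endoplasmic reticulum and is itself a target of SREBP, fell in responders against IgG (log2 fold change -0.84, SE 0.26, adjusted p = 0.0264). It had 50.3 and 53.1 CPM in responders, 60.5 to 101 in non-responders and 52.9 to 118 in IgG tumors. Srebf2, which encodes SREBP-2, had means of 102 CPM in IgG tumors, 94.8 in non-responders and 83.9 in responders, with log2 fold changes of -0.29 against IgG (adjusted p = 0.364) and -0.18 against non-responders (adjusted p = 0.636). Of the 7 genes 0 passed in responders against non-responders. In that comparison 1 passed without IgG replicate 1, in a fit of only the 2 groups and with 3 libraries left out together. The numbers of all genes called in these fits are given above. The call of Insig1 against IgG was lost when either responder was left out and in a fit of only the 2 groups.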

How the data were processed

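The deposited table held expected counts per gene for 16 tumors, which the authors made with STAR 2.6 and RSEM 1.3.0 on GRCm38, per the labels and the study's methods. Libraries were poly(A)-selected and strand-specific, from 2 sections of 100 microns of each fresh-frozen tumor. Replicates are tumors of separate mice and were not pooled. Of the values, 7.84% were not whole, and all were rounded. In all, 92 rows that name no gene (at most 185 counts in a library) were left out. Library sizes were scaled by TMM, genes with low counts were removed with filterByExpr over the 3 groups, and edgeR 4.0.16 (R 4.3.3) fitted 1 quasi-likelihood model of 3 groups with robust dispersions. All aPD-1 tumors were compared with IgG in a model of 2 groups. An adjusted p below 0.05 (Benjamini-Hochberg over 18251 genes) is a call. The SE of a fold change is its size divided by the square root of the F statistic, since the test itself gives none. Log2 CPM used a prior count of 2. The scripts were tested on simulated data.

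Alternatives were DESeq2 1.42.0 (the study's tool), median-of-ratios scaling, no filter or 10 counts in 8 tumors, no robust estimation, only the 2 groups compared, each tumor left out, and 3 libraries left out together. Length was the union of exons in GENCODE M21. The members and lists were chosen with earlier results of these data known. Named were all members, in each of 4 other pathway lists the genes called in any comparison or else of smallest p, and the 8 genes most correlated with the members; not every gene so chosen is reported here. Srebf2 was named after its values were seen. Every enzyme had at least 294 counts in each library, and the number of responders (2) limits the precision.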

Additional observations from a re-analysis of the deposited data

Results flagged for a closer look

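Of 24 checks for 1 sample far from its group, which chance alone passes about 1 time in 20, 3 were met, all on library properties in IgG tumors and none on the level of an enzyme. IgG replicate 1 had 7.60% of its counts in mitochondrially encoded genes, with a gap to the next tumor of 0.865 of the range of the group. The same library had the smallest total, 26603477 counts (gap 0.623 of the range of the group). IgG replicate 1 was also the lowest IgG tumor for 9 of 9 enzymes. The relation between these properties and the enzymes was not tested. IgG replicate 3 had 20.4% of its counts in CT010467.1 (gap 0.933 of the range). Leaving out that library changed no call of the 9 enzymes.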

How the results depend on the processing

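For the 9 enzymes the number called in responders against non-responders was 0 in the reported fit, 2 with DESeq2, 5 with only the 2 groups, 4 with 3 libraries left out, and 0 to 5 when single tumors were left out. In responders against IgG it was 5, with 9 when 3 libraries were left out and 0 to 9 when single tumors were. In responders against IgG, DESeq2, median-of-ratios scaling and no filter each called 6 of the 9. Genes called in these fits were 4701 of 22127, 4188 of 18251 and 4401 of 30852. A fit of only the 2 groups called 4, with 3607 of 17832 genes. In all aPD-1 tumors against IgG the number of enzymes called was 0, and 1 with DESeq2. Over all genes, 3599 were called in responders against non-responders (5802 with 3 libraries left out, 1039 to 5046 with single tumors left out) and 4175 in responders against IgG (7409 and 1398 to 5682, respectively). The lowest counts came without responder 15 and the highest without IgG replicate 1. In non-responders against IgG the count was 0, with 8 by DESeq2, 1 with 3 libraries left out and 0 to 7 with single tumors left out, and in all aPD-1 tumors against IgG it was 0, with 134 by DESeq2. The unadjusted counts in these last comparisons were 694 and 2463 genes.

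The log2 fold change of Idi1 in responders against non-responders turned sign, from 0.05 to -0.033 with no filter and -0.23 with 3 libraries left out, and ran from -0.097 (without responder 15) to 0.175 (without non-responder 12) when single tumors were left out. The cause was not tested. Among the other fold changes of the 9 enzymes, none turned sign under any alternative run. The median r of the 36 pairs stayed between 0.866 and 0.904 when single tumors were left out. No paired analysis was possible because the replicate numbers run from 1 to 16 without repeating between groups. The 2 responders limit every comparison that uses them, and when 1 was left out the lone responder was assumed to vary like the other groups.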
